A study of Mus musculus with 24 samples.

Results

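Rnase1, Abcb1a, Iqch and Dusp15 are 4 of the 32040 genes in the deposited count table. They were taken by symbol and selected on their RNA levels at E11.5 (E, embryonic day), which were far higher in XY than in XX supporting cells of the mouse fetal gonad. The E11.5 values are therefore given below as a description with no test. All 4 passed the filter on low counts that left 16190 genes for testing. The name under which they were grouped, Sertoli genes high at E11.5 alone, fits Rnase1 and Abcb1a, whose RNA was 8.95-fold and 54.9-fold lower in XY cells 1 day later. The E12.5 level of Abcb1a was near the detection floor, and its fold was 28.3 in TPM and 28.9 with 0.5 CPM added to both means (10.2 and 8.69 for Rnase1). It goes against the data for Iqch, whose XY mean at E12.5 was 0.985 of that at E11.5, and for Dusp15, which was higher at every later stage.

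The series holds RNA-seq of sorted cells from 4 stages between E11.5 and E15.5, the inner stages being E12.5 and E13.5, with 3 libraries for each sex and stage, 24 in all. XX libraries came from cells labelled pre-granulosa, sorted from Tg(Enh8-mCherry) gonads. XY libraries came from cells labelled Sertoli, sorted from SOX9-IRES-GFP gonads, where by its name the green reporter is tied to Sox9. About 40000 cells went into each RNA preparation, and the labels give no further treatment or allele. Sex, mouse line and fluorophore change together, so their contributions cannot be told apart, and a Sox9 reporter gates the XY cells on Sox9 itself. The labels do not say whether replicates came from separate litters, so the p-values below measure only the spread between these libraries.

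Sertoli and pre-granulosa cells are the supporting cells of testis and ovary and arise from a common precursor. In XY gonads the Y-linked factor Sry raises Sox9 for a short time around E11.5. Sox9 and the growth factor Fgf9 then hold the Sertoli fate while Foxl2 and WNT signals hold the pre-granulosa fate. Rnase1 encodes a secreted ribonuclease of the pancreatic type, which degrades RNA outside cells. Abcb1a encodes P-glycoprotein, an ATP-driven pump in the plasma membrane that expels lipophilic compounds and is well known from the blood-brain and blood-testis barriers. Iqch encodes a protein with an IQ motif, the short helix that binds calmodulin. Dusp15 encodes a small dual-specificity phosphatase that lacks the kinase-docking domain of the classical MAP kinase phosphatases.

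In the mm10 build, with GENCODE M21 gene models, Rnase1 spans chr14:51144998-51146785 on the minus strand, inside the cluster of RNase A genes. Abcb1a spans chr5:8660077-8748575 on the plus strand, beside its paralogues Abcb1b and Abcb4. Iqch spans chr9:63421455-63602493 on the minus strand, and Dusp15 spans chr2:152940997-152951698 on the minus strand. The RefSeq promoter table for GRCm38.p6, the NCBI name of the same build, matched 3 of the 4 genes (not Dusp15). The 250 bases before the first transcribed base are shown for Rnase1 (chr14:51146768-51147017, minus strand) and Abcb1a (chr5:8566841-8567090, plus strand), because these are the pair that was lower in XY cells after E11.5 and higher in XX cells by E15.5. Both run 5′ to 3′, and capitals mark the only matches to 5 motifs searched on both strands.

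Rnase1: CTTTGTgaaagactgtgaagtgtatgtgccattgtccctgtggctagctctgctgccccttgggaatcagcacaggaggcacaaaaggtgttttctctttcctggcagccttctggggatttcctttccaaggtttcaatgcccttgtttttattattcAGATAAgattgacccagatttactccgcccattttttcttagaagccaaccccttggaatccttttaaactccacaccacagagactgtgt
Abcb1a: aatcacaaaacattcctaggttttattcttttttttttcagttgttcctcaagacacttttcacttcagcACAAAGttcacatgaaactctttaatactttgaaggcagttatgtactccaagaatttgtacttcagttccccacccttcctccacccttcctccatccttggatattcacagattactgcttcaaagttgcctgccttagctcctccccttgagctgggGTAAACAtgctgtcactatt

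The SOX motif ACAAAG occurs in Abcb1a 180 to 175 bases before the start and, as its reverse complement, in Rnase1 250 to 245 bases before it. Of 32851 promoter windows of the same length, 16.5% hold it. Rnase1 also has the GATA motif AGATAA 91 to 86 bases before the start, which 9.99% of windows hold. Abcb1a has the forkhead motif GTAAACA 20 to 14 bases before the start, which 3.17% of windows hold. The SOX motif AACAAT, in 9.42% of windows, and the NR5A1 motif AAGGTCA, in 4.08%, were in none of the 3 windows read, and the Iqch window held no match to any of the 5. GC content was 45.6% for Rnase1, 40.4% for Abcb1a and 76.0% for Iqch, against a median of 52.4% over all windows. The RefSeq start of Abcb1a lies 92986 bases upstream of its GENCODE M21 start, within the span of Rundc3b, so the Abcb1a window belongs to the RefSeq start alone. For Rnase1 the gap between the starts is 18 bases, and for Iqch it is 0.

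Library totals ran from 11275251 to 37256881 estimated counts, with the XY E11.5 libraries deepest (35392435 to 37256881). Levels are given as CPM, read counts divided by a library total scaled with the TMM method, and a count of 3 corresponded to 0.0774 to 0.26 CPM. Sertoli markers summed to at least 1455 CPM in every XY library against at most 279.6 CPM in XX libraries. Sox9, on which the XY cells were gated, is in this sum and was its highest member in XY E11.5 (mean 1706 CPM). All 8 of these markers were at 10 CPM or more on average in all 4 XY groups. In XX E11.5, Sox9, Cldn11 and Cst9 reached that level too, and mean Cldn11 was lower in XY (10.95 CPM) than in XX (15.36 CPM). At that stage 7 of the 8 were called lower in XX. Pre-granulosa markers summed to at least 235 CPM in every XX library against at most 32.1 CPM in XY. The XX E11.5 libraries were uneven, at 235 to 864 CPM for pre-granulosa markers and 2277 to 22653 CPM for erythroid markers. Replicate 3 of XY E11.5 had 40.8 CPM of Xist, the RNA of the inactive X chromosome, against 0.272 and 6.32 CPM in replicates 1 and 2 and 71.0 to 109 CPM in XX E11.5. It also had the lowest Sox9, at 1208 CPM against 1783 and 2127 CPM. Replicate 1 of XX E13.5 carries E12.5 in one label and E13.5 in its title and description, and was kept at E13.5.

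At E11.5, Rnase1 had the highest XY level of the 4 genes, in TPM as well as in CPM. Its XY libraries read 137, 146 and 116 CPM and its XX libraries 0.107, 1.56 and 0.194 CPM, in replicate order. The XY mean of 133 ± 15.1 CPM (SD, n = 3) was 215-fold the XX mean of 0.620 ± 0.814 CPM. Replicate 2 supplied 34 of the 39 reads behind the XX value, and without it the ratio was 884-fold. Without XY replicate 3 it was 228-fold, and with 0.5 CPM added to both means 119-fold.

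For Abcb1a the E11.5 XY libraries read 32.8, 30.3 and 25.2 CPM and the XX libraries 0.428, 0.413 and 0.259 CPM, a ratio of means of 80.3 (34.5 with 0.5 CPM added to both means). For Iqch the XY libraries read 17.7, 15.9 and 11.3 CPM and the XX libraries 0.374, 0 and 0.130 CPM, a ratio of 89.3 that rests on 9 XX reads (59.5 without XX replicate 2, 23.2 with 0.5 CPM added). In the library listed at 0, the floor of 3 counts corresponds to 0.138 CPM. For Dusp15 the XY libraries read 36.7, 40.2 and 22.6 CPM and the XX libraries 0.481, 1.19 and 0.389 CPM, a ratio of 48.2 (76.2 without XX replicate 2, 28.3 with 0.5 CPM added). The XY and XX libraries did not overlap in 4 of the 4 genes, but the selection on this contrast favoured that outcome. By a different measure, 20.6% of all genes tested were called lower in XX at E11.5. XY replicate 3, the library with Xist, was the lowest of the XY libraries for 4 of the 4 genes. Without it the XY means were 142 CPM for Rnase1, 31.6 CPM for Abcb1a, 16.8 CPM for Iqch and 38.4 CPM for Dusp15.

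The fitted log2 difference at E11.5, which chose the genes, was 7.61 for Rnase1, 6.48 for Iqch, 6.28 for Abcb1a and 5.51 for Dusp15. Fgf9, the growth factor that sustains Sox9, ranked 4 with 5.55, between Abcb1a and Dusp15. Just below Dusp15 came Zan (5.16), Mmd2 (5.13) and Fam83f (5.12). The ranking took in 2224 genes off the Y chromosome that were called lower in XX. They had at least 10 CPM in XY E11.5 and no overlap between XY and XX libraries. The order among the 4 rested on 1 library, since without XX replicate 2 the ratio of means was 85.7 for Abcb1a, above Dusp15 and Iqch. On the TPM scale, which also divides by transcript length and so allows genes to be compared, mean levels in XY E11.5 were 236 for Rnase1, 40.4 for Dusp15, 10.1 for Abcb1a and 7.79 for Iqch.

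**Figure D1:**
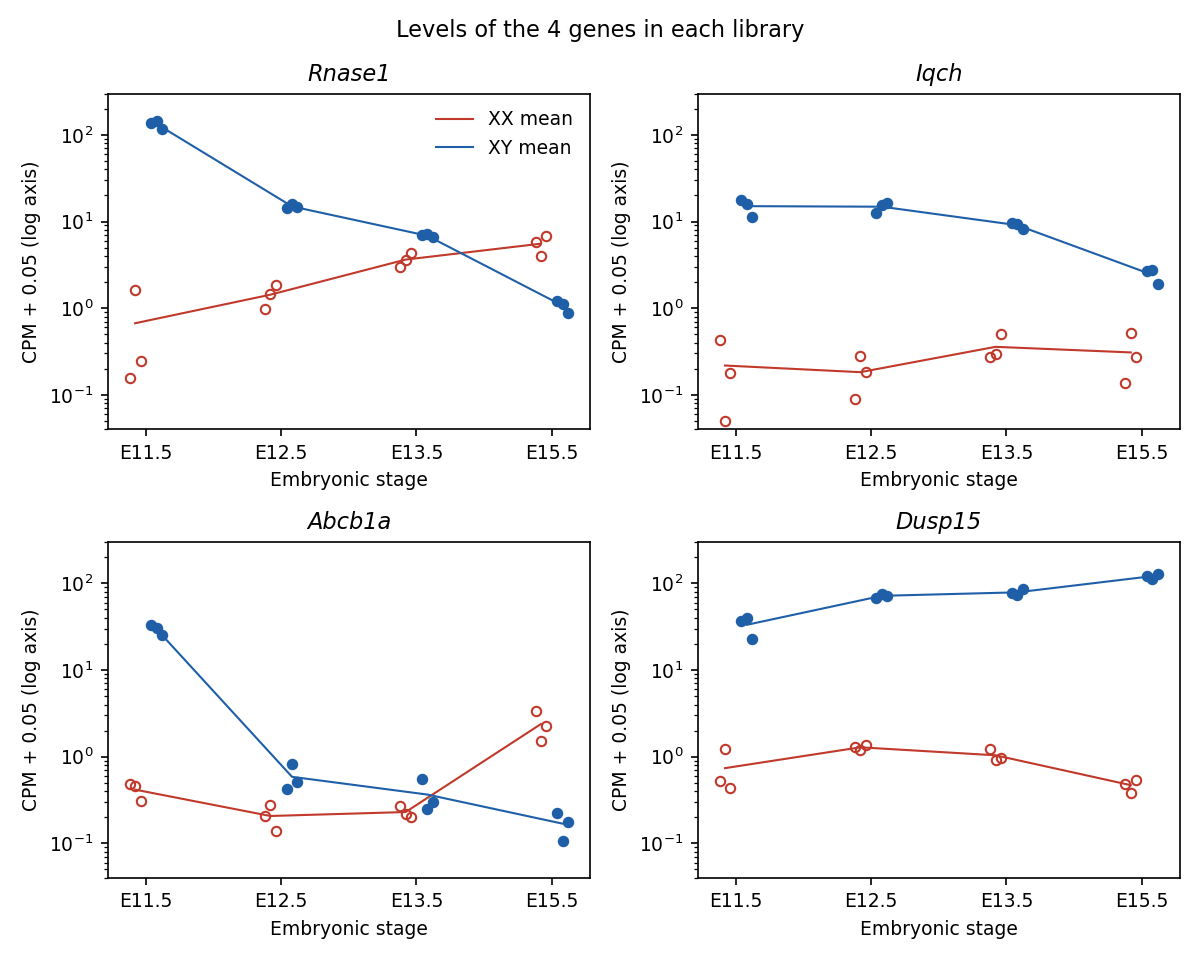
CPM of Rnase1, Iqch, Abcb1a and Dusp15 in each of the 24 libraries, plotted as CPM + 0.05 on a log axis against stage. Open red circles are XX libraries, filled blue circles are XY libraries, and lines join the group means. The XY lines of Rnase1 and Abcb1a fall below the XX lines by E15.5, that of Iqch declines but stays above XX, and that of Dusp15 climbs from a mean of 33.2 to 121 CPM.

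Rnase1 fell in XY cells along both steps that could be tested and rose in XX cells from E12.5 to E13.5, and at E15.5 it was higher in XX cells. At E12.5 the XY libraries read 14.1, 15.7 and 14.8 CPM and the XX libraries 0.932, 1.41 and 1.80 CPM. At E13.5 they read 6.86, 7.05 and 6.50 CPM in XY and 2.96, 3.57 and 4.23 CPM in XX. The sexes were still apart at both stages, with every XY library above every XX library. At E15.5 the XY libraries had come down to 1.17, 1.07 and 0.823 CPM, below all XX libraries at 5.82, 4.0 and 6.68 CPM.

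The XX minus XY difference in Rnase1, on the log2 scale, was -3.44 (SE 0.35, edgeR adjusted p = 4.06e-08) at E12.5. It was -0.92 (SE 0.33, edgeR adjusted p = 0.0185) at E13.5, and 2.41 (SE 0.39, edgeR adjusted p = 1.54e-05) at E15.5. The E13.5 call was lost without replicate 1 of XX E13.5, the library with conflicting stage labels (edgeR adjusted p = 0.0677), and without XX E13.5 replicate 2, XY E13.5 replicate 1 or XY E13.5 replicate 2 (edgeR adjusted p = 0.0747, 0.0546 and 0.0664). Over the 15 alternatives for that test the adjusted p ran from 0.000403 to 0.0779.

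Within XY cells Rnase1 dropped by 1.13 on the log2 scale from E12.5 to E13.5 (SE 0.30, edgeR adjusted p = 0.0126) and by 2.71 from E13.5 to E15.5 (SE 0.38, edgeR adjusted p = 3.3e-05). The first of these calls was lost when XY E12.5 replicate 2, XY E13.5 replicate 2 or XY E13.5 replicate 3 was left out (edgeR adjusted p = 0.0535, 0.0506 and 0.0608), and on log2(TPM + 0.1) values (limma adjusted p = 0.138). Along the second XY step, markers of some other cells were higher at E15.5 in these libraries. Interstitial markers summed to 11 to 13.0 CPM at E13.5 and 46.9 to 61.7 CPM at E15.5 (5 of 6 called higher), and germ cell markers to 18.2 to 23.2 CPM and then 47.6 to 82.5 CPM (6 of 8 called higher). Over all genes, 1863 of 16190 were called higher along this step and 21.3% in either direction. Mesonephric tubule markers summed to 21.2 to 22.6 CPM and then 38.8 to 45.1 CPM (0 of 8 called). Surface epithelium markers summed to 22.5 to 23.7 CPM and then 18.7 to 21.4 CPM (1 of 6 called higher, 0 lower). Steroidogenic sums overlapped, at 84.9 to 88.9 CPM and then 58.3 to 97.2 CPM (2 of 6 called higher, 0 lower). Of 10 endothelial markers tested, 3 were called higher and 2 lower. The part of all these markers in the changes of Rnase1, Iqch and Dusp15 along this step was not tested. Within XX cells Rnase1 rose by 1.38 from E12.5 to E13.5 (SE 0.38, edgeR adjusted p = 0.00827), a call lost without XX E12.5 replicate 1 (edgeR adjusted p = 0.0507) and on log2(TPM + 0.1) values (limma adjusted p = 0.0714). The next XX step, 0.63, was not called (95% interval -0.10 to 1.35, edgeR adjusted p = 0.189), and its libraries overlapped. In the order of the 8 groups, XY E13.5 overlapped XX E15.5, and XX E12.5, XY E15.5 and XX E11.5 overlapped as neighbours at the bottom.

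Along the XX step in which Rnase1 rose, surface epithelium markers summed to 70.2 to 179 CPM at E12.5 and 373 to 401 CPM at E13.5. Steroidogenic markers in the same libraries went from 75.4 to 95 CPM to 204 to 222 CPM. Endothelial markers, of interest because endothelium is a known source of Rnase1, summed to 50.3 to 68.0 CPM and then 62.3 to 70.4 CPM. The part of these markers in the rise of Rnase1 was not tested. In these bulk samples, fewer cells of a type and less RNA per cell cannot be told apart.

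Abcb1a had the sharpest loss after E11.5 among the 4 genes, and was later present in XX cells instead. At E12.5 its XY libraries read 0.374, 0.776 and 0.457 CPM and its XX libraries 0.155, 0.227 and 0.0879 CPM. At E13.5 they read 0.498, 0.199 and 0.25 CPM in XY and 0.222, 0.166 and 0.151 CPM in XX. These values are near the floor of 3 counts, and the sexes did not overlap at E12.5 but did at E13.5. At E15.5 the XX libraries rose to 3.30, 1.47 and 2.23 CPM, while the XY libraries read 0.174, 0.0561 and 0.127 CPM on 6.62 estimated counts in all.

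For Abcb1a the XX minus XY difference was -1.75 at E12.5 (SE 0.45, edgeR adjusted p = 0.00206), a call lost on log2(TPM + 1) values (limma adjusted p = 0.0594). At E13.5 it was -0.74 with a 95% interval of -1.85 to 0.36 (edgeR adjusted p = 0.235), and on log2(TPM + 0.1) values it was called (limma adjusted p = 0.0173). At E15.5 it was 4.17 (SE 0.43, edgeR adjusted p = 2.45e-08), and that call held in 15 of 15 alternatives. XX cells gained 3.65 on the log2 scale from E13.5 to E15.5 (SE 0.42, edgeR adjusted p = 3.31e-06), a 13.0-fold ratio of means with no overlap. The XY steps, -0.83 and -1.25, were not called (edgeR adjusted p = 0.173 and 0.115). Apart from XY E11.5 and XX E15.5, the 6 remaining groups overlapped with their neighbours in the order of levels.

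Marker levels also differed along the XX step in which Abcb1a rose. From E13.5 to E15.5, summed surface epithelium markers went from 373 to 401 CPM to 551 to 577 CPM, steroidogenic markers from 204 to 222 CPM to 293 to 322 CPM, and germ cell markers from 11 to 24.3 CPM to 43.3 to 66.1 CPM. Members of each list differed in direction. Of 6 steroidogenic markers 1 was called higher and 4 lower, with Hsd3b1 means of 122 and then 279 CPM and Cyp11a1 24.5 and then 0.673 CPM. Of 8 germ cell markers 3 were called higher and 2 lower, and of 6 surface epithelium markers 1 higher and 1 lower. Over all genes tested, 25.6% were called along this step in either direction. Endothelial markers summed to 62.3 to 70.4 CPM at E13.5 and 62.0 to 68.2 CPM at E15.5, most of it Kdr and Egfl7. Of the 10 tested, Tek rose by 2.07 on the log2 scale (edgeR adjusted p = 0.0448) and Pecam1 fell by 0.52 (edgeR adjusted p = 0.0126). The part of all these markers in the rise was not tested.

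Iqch stayed with the XY cells for longer. Its XY libraries read 12.3, 15.53 and 16.4 CPM at E12.5, overlapping those of E11.5, and the ratio of the E12.5 to the E11.5 mean was 0.985. The XX libraries at E12.5 read 0.0389, 0.227 and 0.132 CPM. At E13.5 the XY libraries read 9.62, 9.28 and 8.18 CPM and the XX libraries 0.222, 0.249 and 0.453 CPM. At E15.5 the XY libraries were down to 2.60, 2.69 and 1.84 CPM, still above the XX libraries at 0.0868, 0.466 and 0.223 CPM.

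The XX minus XY difference in Iqch was -6.78 (SE 0.47, edgeR adjusted p = 8.08e-11) at E12.5 and -4.89 (SE 0.45, edgeR adjusted p = 4.32e-09) at E13.5. At E15.5 it was -3.15 (SE 0.48, edgeR adjusted p = 6.43e-06), and all 3 calls held in 15 of 15 alternatives each. In XY cells the step from E12.5 to E13.5 was -0.71 and was not called (95% interval -1.37 to -0.06 before adjustment, edgeR adjusted p = 0.124), though the libraries did not overlap. DESeq2 called it (adjusted p = 0.018). From E13.5 to E15.5 Iqch dropped by 1.91 on the log2 scale (SE 0.34, edgeR adjusted p = 0.000285). In XX cells neither step was called (edgeR adjusted p = 0.207 and 0.887), on 9 to 15 counts per group of 3 libraries. The 4 XX groups overlapped as neighbours in the order of Iqch levels, and all lay below XY E15.5.

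Dusp15 had a higher mean in XY cells at each later stage. Its XY libraries read 67.1, 76.3 and 72.0 CPM at E12.5 and 77.4, 72.6 and 86.1 CPM at E13.5. At E15.5 they read 121, 113 and 129 CPM, a mean of 121 ± 7.96 CPM (SD, n = 3) that was 3.65-fold the E11.5 mean. The XX libraries read 1.24, 1.14 and 1.32 CPM at E12.5. They read 1.19, 0.872 and 0.906 CPM at E13.5 and 0.434, 0.333 and 0.490 CPM at E15.5. Every XY library exceeded every XX library at each stage, and the ratio of the means widened from 48.2 at E11.5 to 289 at E15.5.

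For Dusp15 the XX minus XY difference was -5.86 (SE 0.24, edgeR adjusted p = 1.3e-14) at E12.5 and -6.33 (SE 0.25, edgeR adjusted p = 1.08e-14) at E13.5. At E15.5 it was -8.13 (SE 0.28, edgeR adjusted p = 1.36e-15). The XY step from E13.5 to E15.5 was 0.62 (SE 0.17, edgeR adjusted p = 0.0132), lost without XY E13.5 replicate 1, XY E13.5 replicate 2 or XY E15.5 replicate 3 (edgeR adjusted p = 0.0553, 0.0807 and 0.0704) and on log2(TPM + 0.1) values (limma adjusted p = 0.243). The preceding step, 0.13, was not called (95% interval -0.23 to 0.50, edgeR adjusted p = 0.665). In XX cells Dusp15 dropped by 1.17 on the log2 scale from E13.5 to E15.5 (SE 0.41, edgeR adjusted p = 0.0387). That call was lost in each of the 6 fits that left out 1 of the libraries compared (edgeR adjusted p = 0.0585 to 0.121). In the order of Dusp15 levels, XY E13.5 overlapped XY E12.5 and each XX group overlapped the next.

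Counted together, 4 of 4 genes were called between the sexes at E12.5, 3 of 4 at the following stage and 4 of 4 at the last stage. Of all genes tested, 62.1%, 66.1% and 69.4% were called at those stages, so these counts lie near the background. At E12.5 and E13.5 every call was lower in XX, which holds for 31.5% and 33.3% of all genes. At E15.5 Rnase1 and Abcb1a were higher in XX, as were 34.9% of all genes, and Iqch and Dusp15 lower, as were 34.4%. For the steps in XY cells, 1 of 4 was called from E12.5 to E13.5 (background 16.6%) and 3 of 4 from E13.5 to E15.5 (background 21.3%). In XX cells the counts were 1 of 4 (background 31.7%) and 2 of 4 (background 25.6%).

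The XX minus XY difference changed between E12.5, E13.5 and E15.5 in 4 of 4 genes, by a test of sex and stage together that uses no E11.5 difference. The edgeR adjusted p was 2.14e-07 for Rnase1, 6.41e-07 for Abcb1a, 0.00281 for Iqch and 0.000376 for Dusp15. Of all genes tested, 48.5% were called. The XY excess shrank from E12.5 to E15.5 for Iqch, widened for Dusp15, and turned into an XX excess for Rnase1 and Abcb1a.

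**Figure D2:**
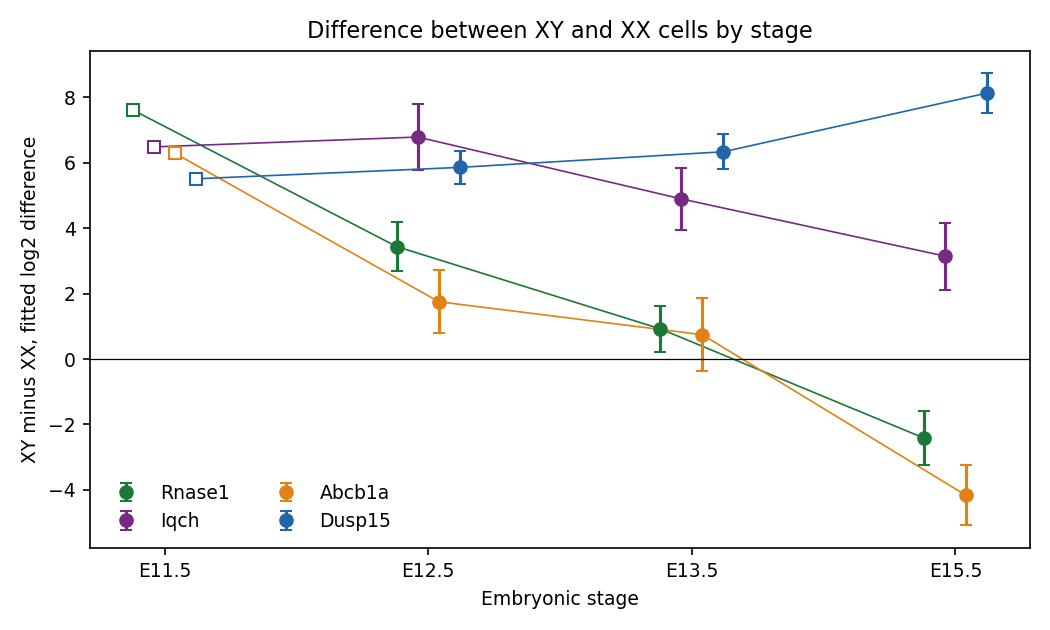
Fitted log2 difference, XY minus XX, for each gene against stage, so that values above 0 are higher in XY. Open squares at E11.5 are the values that chose the genes and carry no interval, and filled circles carry 95% intervals. Rnase1 and Abcb1a cross 0 by E15.5 (2.41 and 4.17 in favour of XX), while Iqch and Dusp15 stay on the XY side.

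How far E11.5 stood alone was measured as the ratio of the XY E11.5 mean to the highest of the other 7 group means, over 9528 genes with at least 10 CPM in XY E11.5. Abcb1a ranked 2 with a ratio of 12.6 (next group XX E15.5), and Rnase1 ranked 5 with 8.95 (next group XY E12.5). Iqch, at 1.02, ranked 953 and Dusp15, at 0.274, ranked 9132. A ratio of at least 2 was reached by 82 genes (0.861%). These ratios use the E11.5 values that chose the genes and are a description.

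Genes near Abcb1a and Rnase1 at the top of that list included Nipal4 (12.2), F2rl2 (11.2), a thrombin-receptor relative, and Lpar3 (7.94), a lysophosphatidic acid receptor. Shisa3, Ces1d, Svep1 and Nup62cl followed at 4.53 to 4.48. Sry, which is known to be brief, read 9.18, 6.50 and 7.31 CPM in XY E11.5 and 0.0467, 0.345 and 0.548 CPM in XY E12.5. Fgf9 in XY cells read 70.7 to 99.0 CPM at E11.5 and 53.8 to 65.5 CPM at E12.5.

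**Figure D3:**
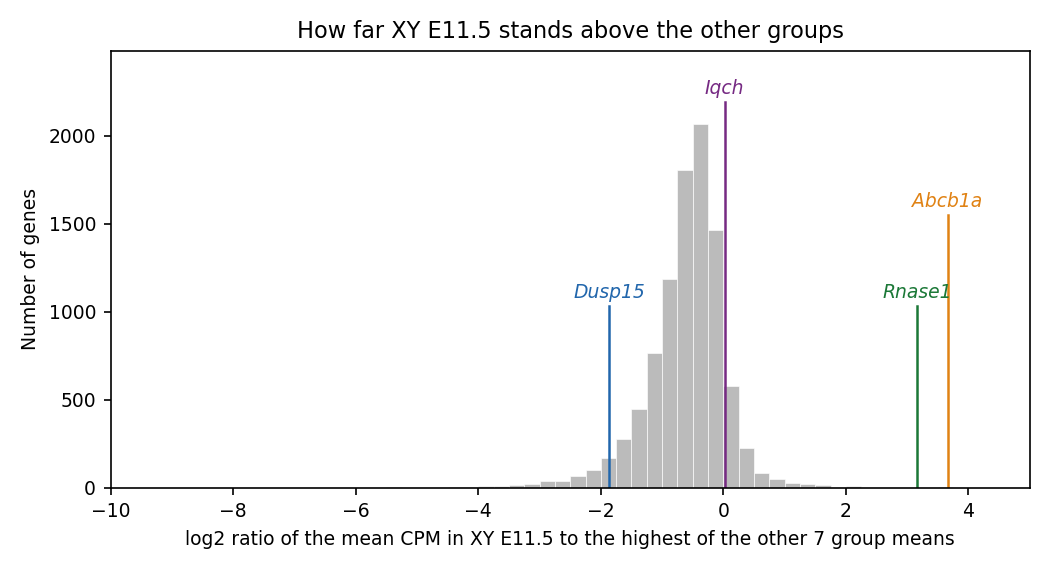
Number of genes by the log2 ratio of the XY E11.5 mean CPM to the highest of the other 7 group means, for 9528 genes. Vertical lines mark the 4 genes, and their heights carry no meaning. Rnase1 and Abcb1a lie at the far right, Iqch at a ratio of 1.02 and Dusp15 to the left of the peak.

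Along the step from E11.5 to E12.5, XY libraries also differed in markers of other cells. Interstitial markers summed to 558 to 839 CPM in XY E11.5 and 26.2 to 30.0 CPM in XY E12.5. Mesonephric tubule markers went from 72.7 to 81.0 CPM to 13.6 to 17.8 CPM, surface epithelium markers from 36.6 to 103 CPM to 16.7 to 18.4 CPM, and steroidogenic markers from 272 to 347 CPM to 58.6 to 81.2 CPM. In XX E11.5 libraries interstitial markers summed to 255 to 917 CPM and mesonephric tubule markers to 52.4 to 174 CPM. Surface epithelium markers summed there to 66.7 to 134 CPM and steroidogenic markers to 267 to 285 CPM. Endothelial markers summed to 33.4 to 44.0 CPM in XY E11.5 and 38.2 to 41.7 CPM in XY E12.5, but single members differed in opposite directions. The mean of Kdr was 13.8 CPM at E11.5 and 0.536 CPM at E12.5, and that of Emcn 1.67 and 0.0762 CPM. The mean of Cdh5 was 0.679 CPM and then 7.94 CPM, and that of Pecam1 1.53 and 7.02 CPM. Immune markers summed to at most 1.67 CPM in XY E11.5, with Cd53 at 0, and to 91.8 to 328 CPM in XX E11.5. Erythroid markers summed to 8.75 to 21.6 CPM in XY E11.5 and 2277 to 22653 CPM in XX E11.5. The part of all these markers in the lower Rnase1 and Abcb1a at E12.5 was not tested.

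**Figure D4:**
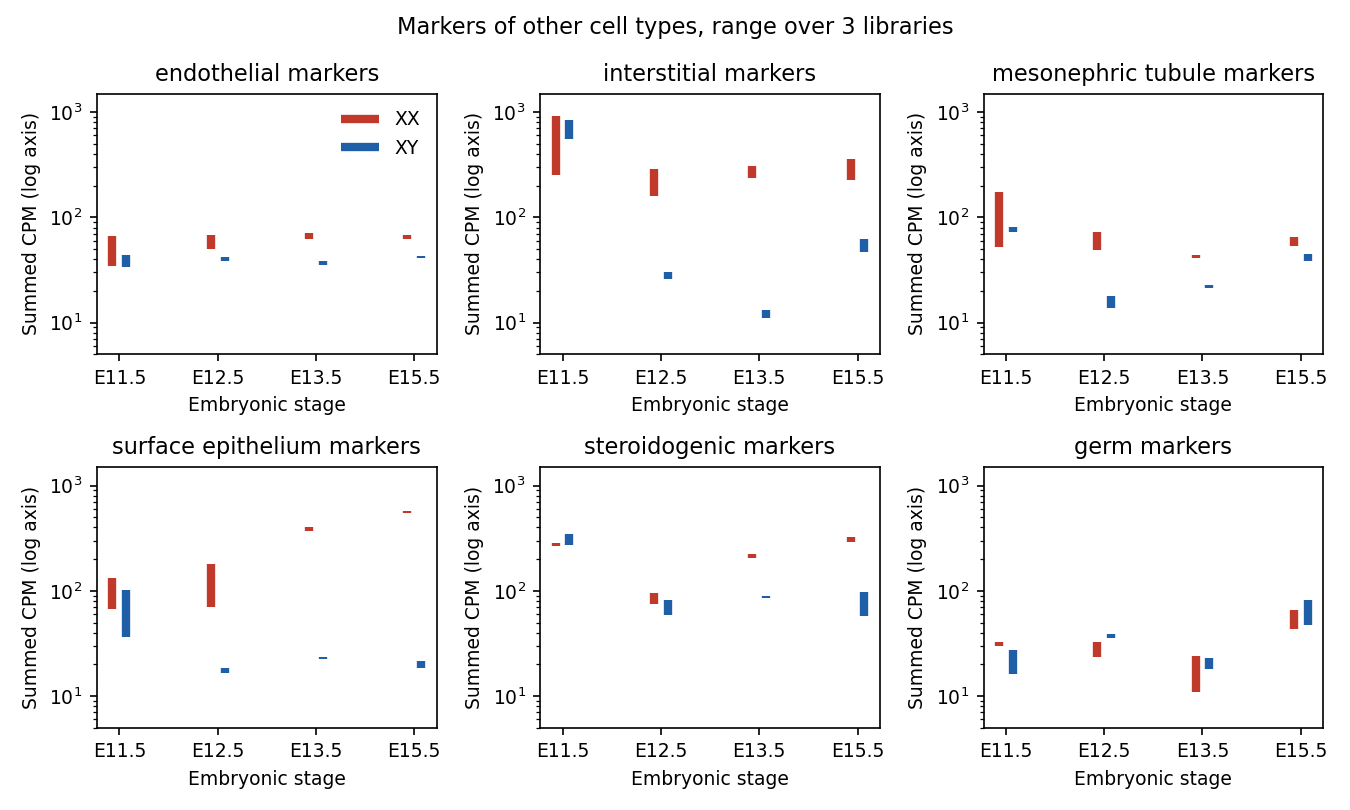
Summed CPM of marker genes of 6 other cell types, on a log axis, against stage. Each bar spans the lowest to the highest of the 3 libraries, red for XX and blue for XY. In XY cells interstitial markers drop from 558 to 839 CPM at E11.5 to 26.2 to 30.0 CPM at E12.5, while the sum of endothelial markers, whose members differ in direction, lies between 33.4 and 44.0 CPM over the 4 stages.

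The genes most like each of the 4 were sought by Pearson correlation of log2(CPM + 0.5) over the 24 libraries, which share the 8 groups, so the correlations are a description. Closest to Rnase1 were Aqp1 (r = 0.965), a water channel, Plat (0.922), the tissue plasminogen activator, and Bend5 (0.892). Aqp1 in XY cells read 12.2 to 23.0 CPM at E11.5 and 0.506 to 1.21 CPM at E15.5, and in XX E15.5 1.69 to 3.13 CPM. Closest to Abcb1a were Clec18a (0.926), Tmem52b (0.924) and Il1rapl1 (0.923). Tmem52b read 2.43 to 4.03 CPM in XY E11.5 and was listed at 0 in the other 21 libraries.

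Closest to Iqch were Klrb1c (r = 0.978), a lectin-like receptor gene known from natural killer cells, Lama4 (0.978), a laminin chain of basement membranes, and Zan (0.975), known as a sperm protein. Klrb1c had its highest mean in XY E11.5, with libraries at 2.32 to 4.43 CPM, and no XX library exceeded 0.0459 CPM. These overlapped its XY libraries at E12.5 (2.24 to 2.67 CPM) and E13.5 (1.95 to 2.65 CPM). Closest to Dusp15 were Cp (0.991), the copper-binding ferroxidase ceruloplasmin, Fkbp1a (0.986), which binds the drug FK506, and Tex19.2 (0.986). Among the 4 genes themselves r was 0.832 for Rnase1 with Abcb1a and 0.861 for Iqch with Dusp15. It was 0.728 for Rnase1 with Iqch, 0.427 for Iqch with Abcb1a, 0.392 for Rnase1 with Dusp15 and 0.101 for Abcb1a with Dusp15.

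**Figure D5:**
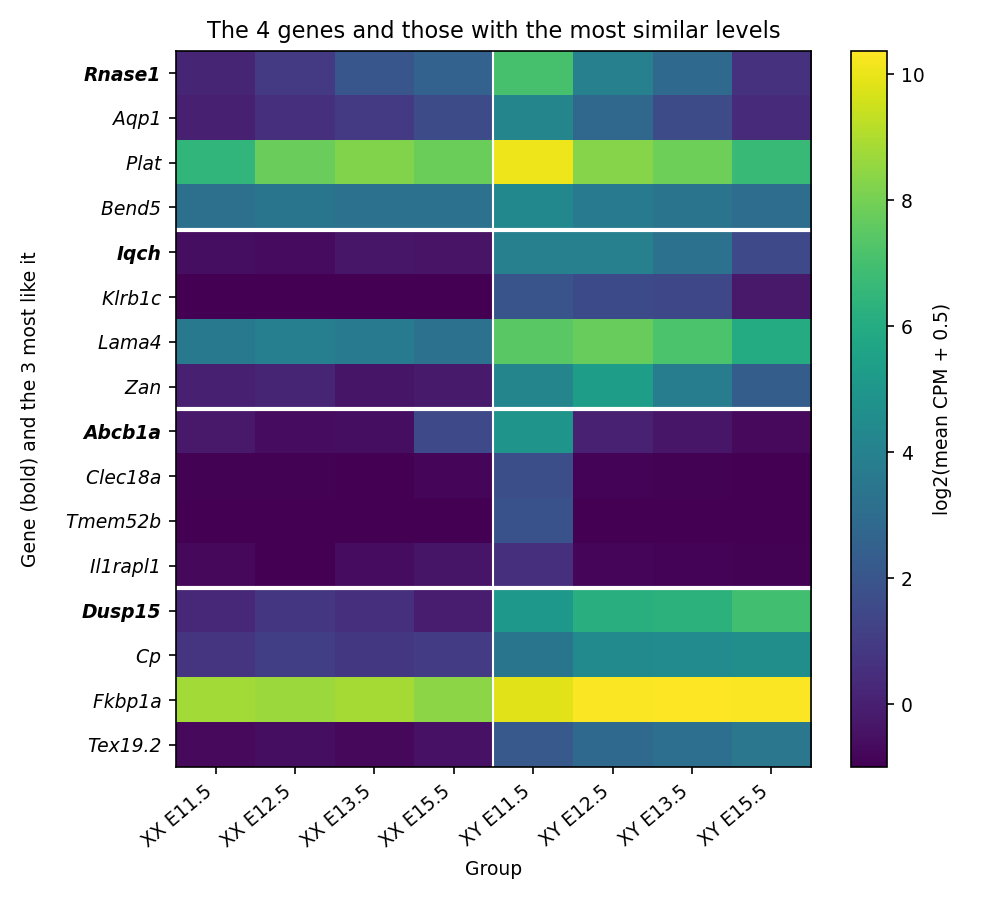
Group means as log2(mean CPM + 0.5), with groups in columns (XX left, XY right) and genes in rows, each of the 4 genes in bold above the 3 genes most correlated with it. The Rnase1 and Abcb1a blocks are brightest in XY E11.5, the Iqch block in XY E11.5 and E12.5, and the Dusp15 block across all XY groups.

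No tested relative of Rnase1 was called higher in XY after E11.5. The list held 20 genes, the other RNase A genes and the ribonuclease inhibitor Rnh1, of which 18 were in the table and 4 could be tested (Rnase4, Ang, Rnase12 and Rnh1). At E12.5, where Rnase1 was lower in XX, 4 of these 4 were called higher in XX, with a median log2 difference of 1.92 against -0.005 over all genes tested. At each of the later stages, 3 of 4 were higher in XX each time and none lower. Calls in either direction took in 62.1%, 66.1% and 69.4% of all genes at these stages in turn. Those higher in XX made up 34.9% at E15.5. So few genes cannot stand for the family. Rnh1 encodes an inhibitor, and Rnase12 was low, with E12.5 means of 1.61 CPM in XX and 0.0609 CPM in XY. Rnase4 differed by 2.15 at E12.5 (SE 0.16, edgeR adjusted p = 2.22e-10). Ang, a ribonuclease known for promoting blood vessel growth, averaged 5.92 ± 1.76 CPM in XX and 1.83 ± 0.467 CPM in XY at that stage (SD, n = 3). Next to Rnase1 on the chromosome, Rnase6, 12811 bases away, stayed at or under 0.534 CPM in each library, and Rnase2b, 15475 bases away, was listed at 0 in all.

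Abcb1b, which encodes the second mouse P-glycoprotein and starts 49572 bases beyond Abcb1a, also had its highest level in XY E11.5. Its XY libraries read 7.06, 6.53 and 5.51 CPM at E11.5, 1.49, 1.73 and 2.28 CPM at E12.5 and 2.05, 1.55 and 1.5 CPM at E13.5. It was lower in XX at E12.5 by 3.06 on the log2 scale (difference -3.06, SE 0.57, edgeR adjusted p = 8.66e-05). It fell in XY cells from E13.5 to E15.5 (difference -2.93, SE 0.59, edgeR adjusted p = 0.00106). In XX E15.5, where Abcb1a rose, Abcb1b read 0.0868 to 0.533 CPM. Of the 50-base words in Abcb1a transcripts, 15.52% also occur in Abcb1b, and 7.49% of the 100-base words do. Taken exactly as deposited, with no tolerance, the counts of Abcb1a were not whole numbers in 18 of 24 libraries and those of Abcb1b in 19, so reads shared by the pair may have been divided between them.

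Among 17 listed efflux transporters of the ABC family other than Abcb1a, 14 were tested. At E12.5, 6 were called higher and 4 lower in XX. The counts were 2 and 7 for E13.5, then 5 and 4 for E15.5. These sums, 10, 9 and 9 of 14, lie near the 62.1%, 66.1% and 69.4% called over all genes. Their median log2 differences were -0.17, -0.43 and 0.38, against -0.005, 0.005 and 0.046 over all genes tested. At E15.5, where Abcb1a was higher in XX, so were Abcc3 (5.25, SE 0.56, edgeR adjusted p = 3.39e-08) and Abcc2 (5.19, SE 0.62, edgeR adjusted p = 1.99e-07), pumps for organic anion conjugates. The sterol exporters Abcg1 (-0.99, edgeR adjusted p = 0.00136) and Abcg4 (-4.22, edgeR adjusted p = 6.46e-09) were lower there.

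For the dual-specificity phosphatases, 26 of the 27 listed relatives of Dusp15 were tested. At E12.5, 6 were called higher and 10 lower in XX. The counts were 10 and 9 for E13.5, then 7 and 13 for E15.5, with medians of -0.33, -0.17 and -0.64. The sums of 16, 19 and 20 of 26 likewise stand beside 62.1%, 66.1% and 69.4% of all genes. The ERK phosphatases Dusp6 and Dusp4, which are targets of FGF signalling, were lower in XX at E12.5 by -3.59 (SE 0.35, edgeR adjusted p = 2.9e-08) and -4.36 (SE 0.56, edgeR adjusted p = 1.16e-06). Dusp14, an atypical relative like Dusp15, differed by -2.43 (SE 0.27, edgeR adjusted p = 1.08e-07). Dusp26, another atypical relative, went the other way (2.37, SE 0.54, edgeR adjusted p = 0.000702). From a list of 17 FGF and MAP kinase feedback genes, which includes Dusp6 and Dusp4, 12 were lower in XX and 3 higher at E12.5, with a median of -1.56. Of all genes tested, 31.5% were called lower in XX at that stage and 62.1% in either direction.

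On the chromosome, Dusp15 lies 7789 bases from Foxs1, a forkhead factor gene that also rose in XY cells. Foxs1 had means of 0.845, 2.16, 7.10 and 31.9 CPM over the 4 XY stages, and its E13.5 to E15.5 step was 2.17 (SE 0.40, edgeR adjusted p = 0.000464). On the other side, Ttll9, a tubulin ligase-like gene 10787 bases away, rose by 0.99 along that step (SE 0.31, edgeR adjusted p = 0.024). Mylk2, a myosin light chain kinase gene 17929 bases away, was lower in XX at the 3 stages tested for the chosen genes (-3.94, -4.20 and -5.20, edgeR adjusted p = 2.03e-05, 4.74e-06 and 2.67e-07). Pdrg1, 57192 bases away, was higher in XX at E15.5 (0.41, edgeR adjusted p = 0.0262).

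Other IQ-motif genes gave mixed calls, with 12 of 20 tested. At E12.5, 2 were called higher and 4 lower in XX. The counts were 4 and 4 for E13.5, then 5 and 3 for E15.5, with medians of 0.12, -0.11 and 0.14. Sums of 6, 8 and 8 of 12 stand beside the same 62.1%, 66.1% and 69.4%. Iqgap2 and Iqgap3, scaffold proteins of the cytoskeleton, were lower in XX at E12.5 as Iqch was (-2.18 and -2.27, edgeR adjusted p = 2.97e-07 and 0.000274). Iqch starts 167 bases from Aagab on the opposite strand. Aagab, which encodes an assembly factor of clathrin adaptors, had XY means of 226, 345, 285 and 142 CPM over the 4 stages and XX means of 87.4, 76.5, 65.1 and 60.1 CPM. Its XX minus XY difference at E12.5 was -2.17 (SE 0.14, edgeR adjusted p = 1.23e-11), and it fell in XY cells from E13.5 to E15.5 (difference -1.01, SE 0.13, edgeR adjusted p = 1.15e-05), as Iqch did. The Iqch span also holds Gm6257, a processed pseudogene at 0.505 to 1.83 CPM in the group means. Counts of Iqch were not whole in 13 of 24 libraries, and those of Rnase1 and Dusp15 were whole in 24 of 24. Whether the counting used strand is not given in the sources used here.

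Lists of Sertoli genes place the 4 among their neighbours in time. Of 16 Sertoli differentiation genes such as Amh and Dhh, 15 were lower in XX at each stage from E12.5 on, with medians of -6.90, -7.20 and -7.80. The share of all genes called lower in XX was 31.5%, 33.3% and 34.4% at those stages. In XY cells 5 of the 16 rose and 0 fell from E12.5 to E13.5, then 2 rose and 7 fell to E15.5. Of all genes tested, 8.02% rose and 8.62% fell along the first step, and 1863 of 16190 genes rose and 9.79% fell along the second. Of 17 early determination genes tested, which include Sry, Sox9 and Fgf9, 0 rose and 4 fell in XY cells from E12.5 to E13.5, then 1 rose and 5 fell. Fgf9 dropped by 1.53 along the first of these steps (SE 0.15, edgeR adjusted p = 7.98e-07), next to 1.13 for Rnase1.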

How the data were processed

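Poly(A) RNA of sorted cells was amplified with a low-input cDNA kit before library preparation, per the labels' protocols, so counts are of amplified molecules. The estimated counts per gene (17.5% not whole numbers, with no tolerance) and the TPM values were analysed as the authors deposited them, and the submitters' processing notes name mm10. The aligner, counter and strand setting are not given in the sources used here. Counts were rounded and fitted with edgeR 4.0.16 in R 4.3.3 (TMM, filterByExpr, robust quasi-likelihood, 1 mean for each of the 8 groups of 3 libraries, 16 residual degrees of freedom, common coefficient of biological variation 17.4%). Adjusted p-values are Benjamini-Hochberg over the 16190 genes tested, two-sided, called under 0.05, and intervals are 95%. Signed differences are log2 XX minus XY, or later minus earlier stage. The median over all genes tested lay between -0.013 and 0.046. The 4 genes, gene lists and marker lists were chosen with earlier results of these data known. Genes were named by list, by the 3 highest correlations with each of the 4, or by the 10 highest ratios of XY E11.5 to the other groups, leaving out pseudogenes, Gm and Rik models from the last 2 rules. Xist, the chromosomal neighbours and the genes ranked just below the 4 at E11.5 fall outside these rules and were chosen after their values were seen. A gene that the last rule names is not reported here. Alternatives used DESeq2 1.42.0, limma 3.58.1 on log2(TPM + 1) and log2(TPM + 0.1), other filters, size factors and sets of libraries, and a replicate block. The fitting code was tested on simulated data. Counts of 3 set the floor, which covers counting error only. All same-numbered libraries deviated together with an r over 0.1 in XX against XY at E11.5, and in no other comparison. The r there was 0.121 to 0.34, and -0.317 to 0.142 for differently numbered pairs, so the ranges overlapped. The replicate block gave 6761 calls in place of 6803 for that comparison. In XX against XY at E12.5 the same-numbered r was also positive, at 0.025 to 0.115, against -0.123 to 0.026 for differently numbered pairs.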

Additional observations from a re-analysis of the deposited data

Results flagged for a closer look

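The XX minus XY difference changed over E12.5, E13.5 and E15.5 in each of the 4 genes, by the edgeR test of sex and stage together over 3 libraries per group. The adjusted p was 2.14e-07 for Rnase1, 6.41e-07 for Abcb1a, 0.00281 for Iqch and 0.000376 for Dusp15, and it stayed under 0.05 in 27 of 27 alternatives for each gene (highest 0.0219, for Iqch). Of all genes tested, 48.5% were called by the same test, so a changing difference was common in these libraries. Groups of 3 libraries were too small for the check of single outlying samples.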

How the results depend on the processing

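Of 522 tests of the 4 genes under alternatives, 484 kept their direction and side of the threshold, 26 lost the call, 6 gained one and 6 changed direction, none of these 6 in a called difference. Fitting only the libraries compared gave 2718 calls in place of 6803 for XX against XY at E11.5, 4317 in place of 2694 for XY E12.5 to E13.5 and 6111 in place of 3448 for XY E13.5 to E15.5. The cause was not tested. Leaving out 1 library at a time gave 1503 to 2367 calls for XY E12.5 to E13.5 (1503 without XY E12.5 replicate 2, 1626 and 1606 without XY E13.5 replicates 2 and 3) and 2540 to 3919, against 4144, for XX E13.5 to E15.5 (2726 without XX E13.5 replicate 1, 2540 without XX E15.5 replicate 3).

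For XY E12.5 to E13.5, 2 of the 4 genes were called in place of 1 with DESeq2, limma on log2(TPM + 1) with or without the filter, and the libraries compared alone. It was 0 with limma on log2(TPM + 0.1), and 0 to 1 leaving out 1 library. For XX E12.5 to E13.5 the count of 1 was 0 on log2(TPM + 0.1) and 0 to 1 leaving out 1 library. For XX E13.5 to E15.5 the count of 2 was 1 on unfiltered log2(TPM + 1) and 1 in every fit without a library. Abcb1a in XX E12.5 to E13.5 was -0.00443 on log2(TPM + 1), filtered or not, -0.025 on log2(TPM + 0.1), and -0.051 to 0.533 leaving out 1 library. Iqch in XX E13.5 to E15.5 ran from -0.773 to 0.149, and its untested XY log2 ratio of E12.5 to E11.5 from -0.188 to 0.117.

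The labels number replicates alike in all groups, but outside E11.5 same-numbered libraries did not all deviate together with an r over 0.1. With the number as a replicate block, 1 of the 4 genes in place of 2 was called for XX E13.5 to E15.5 (Dusp15, adjusted p = 0.0513 in edgeR), and no other call of the 4 genes changed. Levels under about 0.26 CPM rest on 3 counts or fewer in the shallowest library. This limits Abcb1a after E11.5, except in XX E15.5, and Iqch in XX cells.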
